A study of Mus musculus with 7 samples.

Results

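The step from the pre-proB to the proB stage of mouse B-cell development was examined by comparing the accessible chromatin of wildtype (WT) pre-proB and WT proB cells. A WT pre-proB peak was called lost when no WT proB peak overlapped it by at least 1 bp, and a WT proB peak was called gained when no WT pre-proB peak overlapped it. By this rule 32633 of the 95662 WT pre-proB peaks were lost, or 34.1% with a 95% Wilson interval of 33.8 to 34.4. On the other side 29219 of the 91668 WT proB peaks were gained, or 31.9% with an interval of 31.6 to 32.2. These shares, 34.1% and 31.9%, are the background against which the counts at genes and gene groups below were read.

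The series holds 647973 peaks from 7 ATAC-seq libraries, 1 library in each of 7 groups. ATAC-seq marks open chromatin by letting the Tn5 transposase cut into nuclei, and reads stack up into peaks at the open stretches. Both WT groups carried loxP-flanked Erg alleles (Ergfl/fl) without Cre, on a C57BL/6J background, and mice of both sexes aged 6 to 18 weeks were used in the study. The cells were sorted from bone marrow as B220+ CD43+ and negative for IgM, IgD, NK1.1 and CD11c, with pre-proB cells CD24- and proB cells CD24+. The other libraries served as a reference: WT preB cells, the following stage; Erg KO pre-proB cells (Rag1CreT/+;Ergdelta/delta), where Cre driven from the Rag1 locus deleted Erg in lymphoid cells; and Erg Rescue cells, with the same deletion and a rearranged heavy chain allele (IgHVH10tar), at 3 stages. The stage of each Erg Rescue library is that of its title, and the source names of all 3 give another stage. No group had a replicate, so the spread between animals is unknown, no difference was tested, and the intervals reflect counting error alone, with each peak taken as independent. In a bulk library, fewer cells with an open site and less opening in each cell cannot be told apart.

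Pre-proB cells are early progenitors that express B220 but have not completed commitment to the B lineage. Commitment at the proB stage is set by a chain of transcription factors in which E2A and FOXO1 act with EBF1, and EBF1 switches on Pax5. ProB cells rearrange the heavy chain locus with the RAG recombinase and express the surrogate light chain, which later pairs with the heavy chain in the pre-B cell receptor (pre-BCR).

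The sequences around 7 summits show what lay at strong sites of the transition and at the 2 B-lineage regulators Ebf1 and Pax5. Each is 201 bases of GRCm38 (mm10), centred on the deposited summit and read from the + strand. Capitals mark a match, on either strand, to a letter pattern of a transcription factor family: the EBF1 pattern (TCCC, any 2 bases, then GGGA), the RUNX pattern TGTGGTT or the E box CAGCTG. A match describes the letters and is no bound site. The 3 lost peaks of the highest deposited score were nearest to Hgf (chr5:16461886-16462086, intergenic), Ror1 (chr4:100219726-100219926, intron) and Tusc1 (chr4:93481386-93481586, intron of a neighbouring transcript).
Hgf: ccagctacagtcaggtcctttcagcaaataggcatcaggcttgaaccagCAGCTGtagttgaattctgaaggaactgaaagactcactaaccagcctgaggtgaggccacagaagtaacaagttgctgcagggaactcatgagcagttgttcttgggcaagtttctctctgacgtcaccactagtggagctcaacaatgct
Ror1: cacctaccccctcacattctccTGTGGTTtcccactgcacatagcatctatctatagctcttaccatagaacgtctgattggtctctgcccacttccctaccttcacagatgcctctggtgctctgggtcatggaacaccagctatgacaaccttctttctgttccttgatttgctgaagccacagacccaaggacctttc
Tusc1: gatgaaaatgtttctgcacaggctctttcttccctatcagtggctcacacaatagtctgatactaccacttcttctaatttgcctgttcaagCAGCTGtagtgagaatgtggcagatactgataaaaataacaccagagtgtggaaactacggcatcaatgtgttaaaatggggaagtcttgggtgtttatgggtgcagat
The 2 gained peaks of the highest score were nearest to Gpatch2 (chr1:187328467-187328667, intron) and Lmo4 (chr3:144007386-144007586, intergenic), and the Lmo4 sequence held none of these 3 patterns.
Gpatch2: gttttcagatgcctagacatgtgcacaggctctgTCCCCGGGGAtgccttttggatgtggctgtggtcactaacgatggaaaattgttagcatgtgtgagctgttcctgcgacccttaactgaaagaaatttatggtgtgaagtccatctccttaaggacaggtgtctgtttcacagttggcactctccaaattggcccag
Lmo4: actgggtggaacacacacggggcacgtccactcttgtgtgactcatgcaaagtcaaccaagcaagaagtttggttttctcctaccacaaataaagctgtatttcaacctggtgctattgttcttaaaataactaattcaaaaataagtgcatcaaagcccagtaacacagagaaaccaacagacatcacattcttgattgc
Gained intronic peaks of Pax5 (chr4:44641674-44641874) and Ebf1 (chr11:45002086-45002286) with the EBF1 pattern are also shown. The pattern was also sought at Cd79a, Igll1, Vpreb1 and Blnk, and no gained peak nearest those genes held it. The Pax5 peak was weak, with 20 reads stacked at its WT proB summit, and no other library held it. At the Ebf1 peak 64 reads were stacked, and WT preB and the later Erg Rescue stages also held it. Whether EBF1 acts at either site was not tested.
Pax5: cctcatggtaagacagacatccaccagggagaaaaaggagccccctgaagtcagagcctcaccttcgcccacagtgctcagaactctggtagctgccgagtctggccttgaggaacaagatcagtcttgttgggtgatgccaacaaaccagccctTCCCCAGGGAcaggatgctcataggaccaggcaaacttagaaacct
Ebf1: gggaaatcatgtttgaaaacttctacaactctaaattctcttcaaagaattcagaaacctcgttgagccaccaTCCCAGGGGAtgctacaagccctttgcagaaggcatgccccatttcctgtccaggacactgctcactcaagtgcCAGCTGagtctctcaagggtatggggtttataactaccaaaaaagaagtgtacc

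The exchanged sites lay mostly away from promoters. A promoter peak was one that overlapped the 1000 bp on either side of any annotated transcription start site (TSS), and all other peaks were distal. Of the WT pre-proB promoter peaks, 2120 of 19678 were lost (10.8%), against 30513 of 75984 distal peaks (40.2%). Of the WT proB promoter peaks, 3169 of 20508 were gained (15.5%), against 26050 of 71160 distal peaks (36.6%). Promoters therefore made up 6.50% of lost peaks, 10.8% of gained peaks and 27.9% of the WT pre-proB peaks that were shared. Introns held 53.7% of the lost and 48.0% of the gained peaks. Distance from a protein-coding TSS gave the same order, with 5.79% of peaks lost and 11% gained within 1000 bp, and 46.7% lost and 44.5% gained beyond 100000 bp.

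Lost sites were stronger than gained sites. The summit pileup, the number of reads stacked at a peak's summit, had a median of 30 in lost peaks, 24 in gained peaks and 59 and 60 in the shared peaks of WT pre-proB and WT proB. A pileup of 120 or more was found in 3045 lost and 723 gained peaks, and one of 240 or more in 846 lost and 33 gained peaks. The lowest called pileup was 12 in both lists, so a site without a peak could still hold about that many reads. Background pileups were alike at 4.16 in WT pre-proB and 4.42 in WT proB, and the lists covered 63.8 and 64.1 Mb. The share lost went from 56.2% in the weakest decile of WT pre-proB peaks to 7.30% in the strongest decile, while the share gained went from 64.5% to 0.315%, which was 29 peaks of the strongest decile of WT proB.

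**Figure D1:**
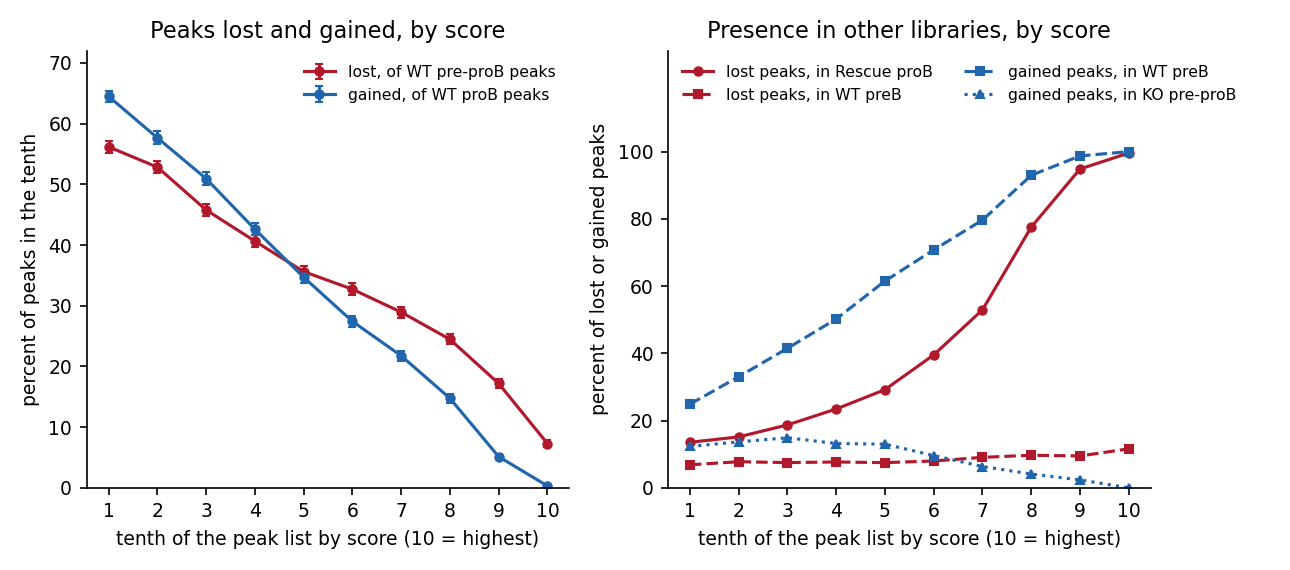
Share of peaks lost (WT pre-proB list) and gained (WT proB list), in percent with 95% Wilson intervals, by decile of each list's own deposited score from the weakest to the strongest. The lost share ends at 7.30% and the gained share at 0.315% in the strongest decile. The right panel gives the percent of lost peaks of each decile called in Erg Rescue proB (13.5% to 99.6%) and WT preB, and of gained peaks called in WT preB and Erg KO pre-proB.

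The other libraries held the same sites in a stage-wise pattern. Of all lost peaks, 92.3% had a peak in Erg KO pre-proB and 93.9% in Erg Rescue pre-proB, against 33.7% in Erg Rescue proB, 16.0% in Erg Rescue preB and 8% in WT preB. For gained peaks the shares were 48.5% in WT preB, 49.2% in Erg Rescue proB and 50.8% in Erg Rescue preB, against 11.9% in Erg KO pre-proB and 13.8% in Erg Rescue pre-proB. Lost peaks present in both other pre-proB libraries and in none of the 3 later libraries numbered 17357 (53.2%). Gained peaks present in all 3 later libraries and in neither other pre-proB library numbered 8034 (27.5%), and 9410 (32.2%) occurred in WT proB alone. By comparison 905 lost peaks (2.77%) occurred in WT pre-proB alone.

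Strong lost sites were not absent from Erg Rescue proB but weak there. Among the 1000 lost peaks of the highest score, all 1000 were called in each pre-proB library, at a median pileup of 295.5 for WT, 328.5 for Erg KO and 372 for Erg Rescue. In Erg Rescue proB 997 of these 1000 were called, at a median of 48, and in WT preB 110 were called, at a median of 21. The 1000 gained peaks of the highest score had a median of 133 in WT proB, and 976 were called in WT preB at a median of 99. Only 30 of these were called in Erg KO pre-proB, at a median of 20. Retention of lost sites in Erg Rescue proB climbed with strength, from 13.5% in the weakest decile to 99.6% in the strongest.

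The lost peak nearest Hgf, a growth factor gene, was the strongest, with pileups of 1111 (WT), 1164 (Erg KO) and 1322 (Erg Rescue) at the pre-proB stage, no peak in WT proB or WT preB, 135 in Erg Rescue proB and 18 in Erg Rescue preB. It lay 91564 bp upstream of the TSS. The peak nearest Ror1, a receptor tyrosine kinase gene, had 1053 in WT pre-proB, none in WT proB and 171 in Erg Rescue proB. Next to Tusc1 the values were 1001, none and 207. The remaining 5 of the 8 highest-scoring lost peaks, nearest Dync1li2 (891), Phc1 (835), Ddx1 (830), Slc8a1 (820) and Hs2st1 (800), followed the same course, and the Hs2st1 peak alone was called in WT preB, at 20.

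All 8 gained peaks of the highest score were absent from the 3 pre-proB libraries and present in the 4 later ones. The peak nearest Gpatch2 had a pileup of 381 in WT proB and 249 in WT preB, with 278 in Erg Rescue proB and 276 in Erg Rescue preB. The peak nearest Lmo4, a LIM-only transcriptional regulator, had 380 in WT proB and 341 in WT preB. Sel1l, a gene of protein quality control in the endoplasmic reticulum, was the nearest gene, at 969743 bp, to a peak of 377 in WT proB and 476 in Erg Rescue preB. Nebl (349), Rbms3 (340), Zmpste24 (328), Mreg (313) and Zfc3h1 (306) completed the list, and the Zfc3h1 site was higher in WT preB, at 465.

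**Figure D2:**
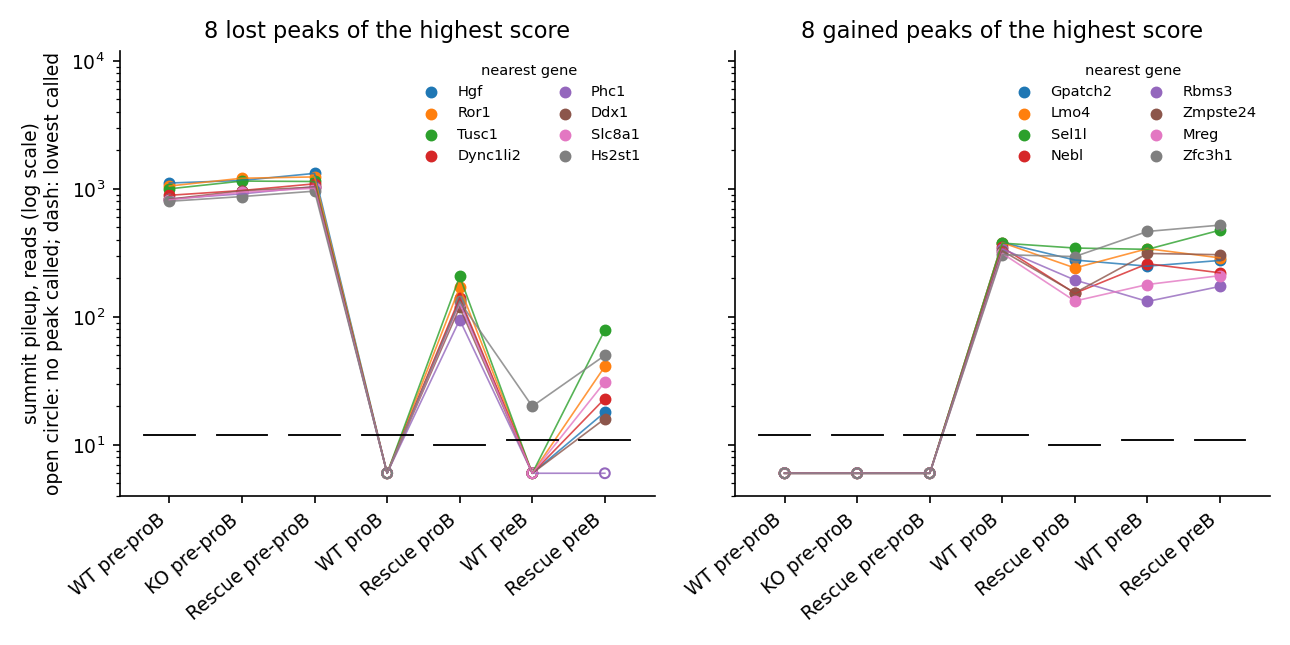
Summit pileup in reads, on a log scale, of the 8 lost and 8 gained peaks of the highest score in each of the 7 libraries, with open circles where no peak was called and dashes at the lowest called pileup. Lost sites stand between 800 and 1322 in the 3 pre-proB libraries and gained sites between 132 and 521 in the 4 later ones.

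Many sites changed in strength without being lost or gained. Overlapping peaks of both lists merged into 60738 shared regions, and the log2 ratio of the deposited fold over background, WT proB over WT pre-proB, had a median of -0.07. The median was 0.01 in the 16990 promoter regions and -0.11 in the 43748 distal regions. At least 4-fold higher in WT proB were 3038 regions (5.0%), and at least 4-fold lower were 3561 (5.86%). The most unequal regions, named after their values were seen, included an intron 67176 bp from Rasgrf1, a Ras exchange factor gene, with a pileup of 16 in WT pre-proB and 501 in WT proB. An intron of Bank1, which encodes a B-cell scaffold protein, went from 20 to 432, and a region 418888 bp upstream of Mef2c, which encodes a MADS-box factor used in B-lymphoid cells, from 18 to 376. In the other direction an intron near Dffb, a nuclease gene of apoptosis, had 1000 and 18, an intron of the adhesion gene Cadm1 had 790 and 19, and a region 10642 bp upstream of Matn2 had 1144 and 31.

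At the promoter level more genes opened than closed. Of 21911 protein-coding genes, 13461 had a promoter peak in both libraries, 399 (1.82%) in WT pre-proB only and 900 (4.11%) in WT proB only, and 7151 in neither. Where both had a peak, the median log2 ratio was -0.00, with 888 promoters (6.60%) at least 2-fold higher in WT proB and 510 (3.79%) at least 2-fold lower. The strongest closed promoters were those of 4632433K11Rik (457 in WT pre-proB), Aplnr (428), Klrb1a (421), Clec9a (420), Tmigd3 (402), Cubn (379), Gm17409 (364) and Gm813 (356). Aplnr encodes the apelin receptor, and Clec9a a C-type lectin of dendritic cells that had 141 in Erg Rescue proB. Klrb1a belongs to a family of similar NK receptor genes, so reads at it may be shared with relatives, and it had no promoter peak in Erg KO pre-proB but 477 in Erg Rescue pre-proB. The strongest opened promoters were C4bp (345 in WT proB), Cldnd2 (316), Svopl (250), Hdac9 (230), Hist1h1d (224), Lnx1 (220), Tmc5 (215) and Cldn14 (206). C4bp, which encodes a complement inhibitor, kept 247 in WT preB and the histone deacetylase gene Hdac9 had 337 there, whereas Cldnd2 and Lnx1 had no promoter peak in WT preB. The promoter of Hist1h1d, a linker histone gene of a cluster of similar genes, had 259 in Erg KO pre-proB and no peak in Erg Rescue pre-proB.

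Among promoters open in both libraries, those with the highest and lowest ratios were chosen after their values were seen. Klhl14, which is expressed in B cells, had a pileup of 21 in WT pre-proB and 365 in WT proB, a log2 ratio of 3.99. Pou2af1, which encodes the B-cell coactivator OCA-B, went from 37 to 496 (3.64), and Vpreb3, an early B-lineage gene, from 24 to 249 (3.25). Dkk3 went from 18 to 299. In the other direction Agmo, which encodes an ether lipid monooxygenase, went from 609 to 23 (-4.74), the lipid receptor gene Gpr55 from 427 to 26 (-4.06) and the phosphatase gene Ptpro from 356 to 26 (-3.80). Each of these 3 promoters was also higher in Erg KO pre-proB, at 663, 455 and 427, than in WT proB.

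Peaks assigned to the 192 genes of 15 lists by nearest protein-coding TSS differed between lists in the direction of exchange. B-lineage transcription factors had 147 of 490 peaks lost (30%, 95% interval 26.1 to 34.2) and 219 of 563 gained (38.9%, 35 to 43.0), against 34.1% and 31.9% over all peaks. Plasmacytoid dendritic cell (pDC) markers had 152 of 294 lost (51.7%, 46.0 to 57.4) and 62 of 202 gained (30.7%), and NK and innate lymphoid markers 78 of 165 lost (47.3%, 39.8 to 54.9) and 27 of 115 gained (23.5%). Genes with more gained than lost peaks were 14 of 18 in the B-lineage factors, 11 of 18 in the pre-BCR list, 2 of 13 in the NK list, 0 of 12 in the pDC list and 2 of 16 in the myeloid list, against 33.1% of all genes with a peak. Genes with more lost than gained peaks were 4, 3, 11, 9 and 9 in the same order, against 36.0% of all genes. Equal counts were found at 5456 of the 17690 genes with a peak but at 0 of the 18 B-lineage factors. The lists were not matched to all genes in peaks per gene, so these gene shares are only roughly comparable. Promoters of the pre-BCR list had a median log2 ratio of 1.18, those of the B-lineage factors 0.14, those of pDC markers -0.58, those of myeloid markers -0.85 and those of housekeeping genes -0.29.

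**Figure D3:**
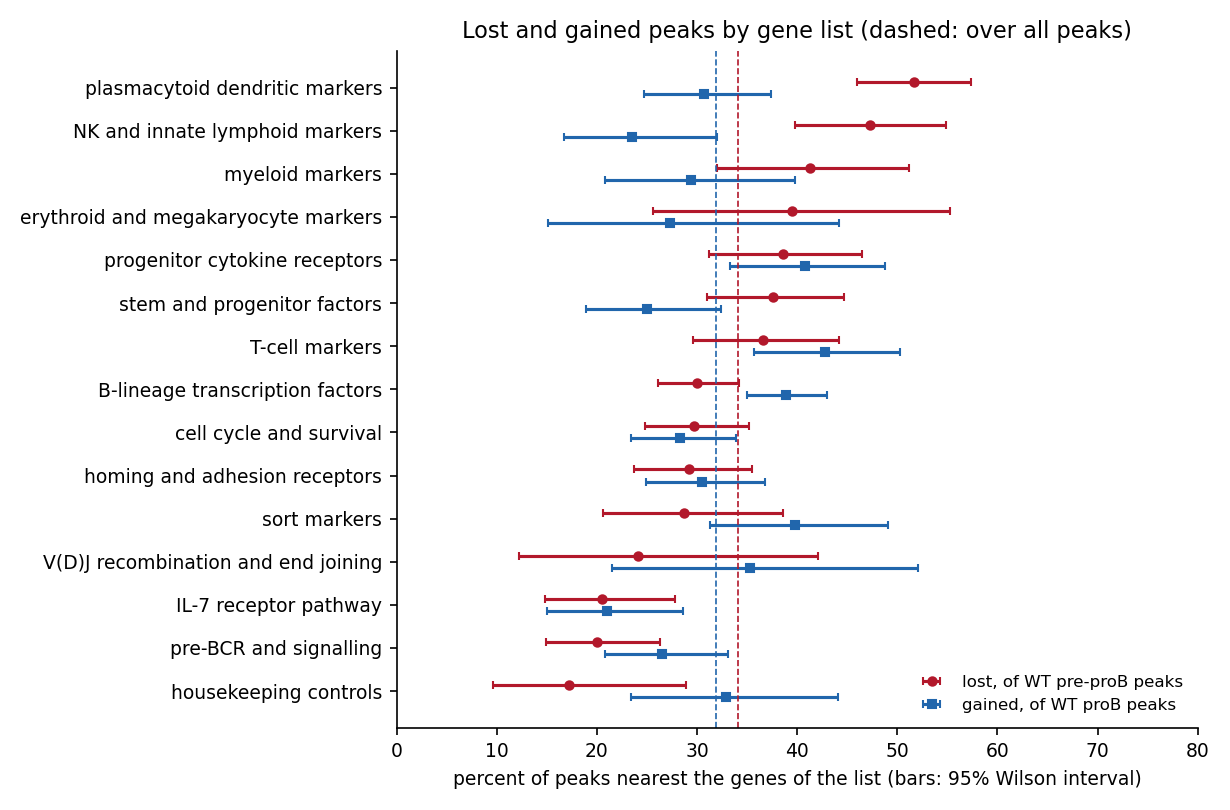
Share of peaks lost and gained, in percent with 95% Wilson intervals, for the 15 gene lists, with the shares over all peaks (34.1% and 31.9%) as reference lines. The pDC and NK lists lie furthest above the lost reference. The myeloid, erythroid, progenitor receptor, stem and T-cell lists are also above it. Above the gained reference lie T-cell markers (42.8%), progenitor cytokine receptors (40.8%), sort markers (39.8%) and the B-lineage factors (38.9%). The recombination list (35.3%) and housekeeping genes (32.9%) are above it by less.

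Ebf1, the factor that specifies the B lineage, had 27 gained peaks of 54 in WT proB and 8 lost of 36 in WT pre-proB. Its promoter pileup went from 110 in WT pre-proB to 318 in WT proB (log2 ratio 1.45), and WT preB had 232. The strongest gained Ebf1 peak, in an intron 147926 bp into the gene, had 181 in WT proB, 297 in WT preB, none in Erg KO pre-proB and 15 in Erg Rescue pre-proB. Gained sites thus spread over the whole locus, and 20 of the 27 were also called in WT preB.

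Pax5, which holds cells to the B lineage, had 19 gained peaks of 34 and 4 lost of 18. Near its start a shared peak had 18 in WT pre-proB and 116 in WT proB, and WT proB had 151 at a separate gained peak 1140 bp from the nearest TSS that was absent in Erg KO pre-proB and Erg Rescue pre-proB and had 183 in WT preB. Exchange within the gene ran both ways, since intronic peaks 85507 and 80227 bp from the nearest TSS had 206 and 148 in WT pre-proB and were lost. Erg KO pre-proB had 193 and 180 at those lost sites, and Erg Rescue proB had 44 and 22.

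**Figure D4:**
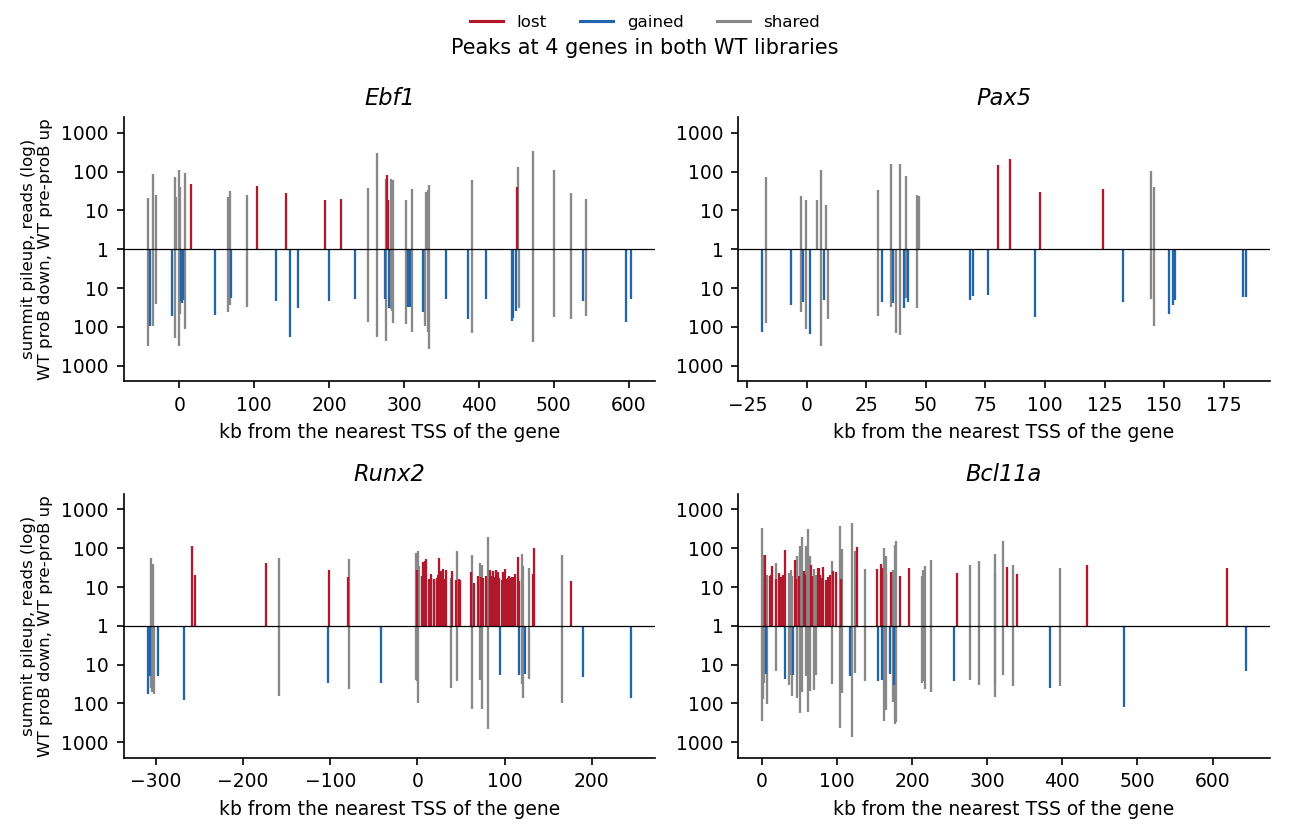
Peaks of WT pre-proB (up) and WT proB (down) by summit pileup in reads (log scale) against distance in kb from the nearest TSS of the gene, for Ebf1, Pax5, Runx2 and Bcl11a, coloured as lost, gained or shared. Gained peaks spread along Ebf1, Pax5 has its strongest lost peaks at 206 and 148, and weak lost peaks crowd the bodies of Runx2 and Bcl11a.

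All 18 B-lineage factors had a promoter peak in both libraries, with 6 at least 2-fold higher in WT proB and 2 at least 2-fold lower. The higher ones were Pou2af1, Pax5, Erg (63 and 242, log2 ratio 1.85), Spi1 (117 and 368, 1.57), Ebf1 and Lef1 (69 and 161, 1.14). Spi1 encodes the ETS factor PU.1, and 2 lost peaks of 126 and 66 lay 9563 and 8452 bp upstream of its TSS. The lower ones were Ikzf1, which encodes Ikaros (415 and 190, -1.19), and Irf8, a factor of dendritic, myeloid and B cells (330 and 151, -1.19). Tcf3, which encodes E2A, was nearly equal at 364 and 387, as were Mef2c at 1182 and 1056 and Pou2f2 at 90 and 113. Pileups at the remaining promoters were 307 and 197 for Foxo1, 44 and 67 for Ikzf3, 247 and 450 for Spib, 384 and 288 for Bach2, 305 and 269 for Irf4, 530 and 424 for Bcl11a and 177 and 128 for Myb.

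Over all peaks, Erg had 22 gained and 6 lost peaks, Lef1 18 and 4, Foxo1 20 and 10, Irf4 15 and 6, Pou2af1 7 and 0, and Mef2c 32 and 21. Irf4, a factor of light chain rearrangement, had its strongest gained peak 27940 bp upstream, with 255 in WT proB and 249 in WT preB and no peak in any pre-proB library. The Pou2af1 peak 2547 bp upstream had 150 in WT proB and 110 in WT preB. Lef1, a WNT pathway factor of proB cells, differed from these in that its strongest gained peaks of 162 and 128 had only 54 and 29 in WT preB and none in Erg Rescue proB. Erg also had a gained promoter-proximal peak of 78 that no other library held. Bach2, a repressor of plasma cell fate, had 16 lost and 15 gained peaks, and Irf8 had 10 and 11. Lost peaks outnumbered gained ones at Bcl11a (42 and 12), Ikzf1 (11 and 4) and Spi1 (2 and 0), while counts were 6 and 7 at Myb, 0 and 5 at Ikzf3, 0 and 2 at Tcf3, 0 and 1 at Spib and 1 and 2 at Pou2f2.

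Surrogate light chain and receptor genes, with 38 of 190 peaks lost (20%) and 52 of 196 gained (26.5%), differed mainly at promoters. Igll1, which encodes the lambda5 chain, had a promoter pileup of 128 in WT pre-proB and 765 in WT proB (log2 ratio 2.50), and 370 in WT preB. Its partners Vpreb1 and Vpreb2 went from 43 to 300 (2.70) and from 21 to 197 (3.10), and stood at 95 and 31 in WT preB. Since these partners are close copies of each other, reads may be divided between them. The signalling chains of the receptor, Cd79a and Cd79b, went from 58 to 433 (2.81) and from 42 to 181 (2.01), and kept 370 and 222 in WT preB. The surface gene Ms4a1, which encodes CD20, went from 38 to 305 (2.90).

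Of the 17 pre-BCR genes with a promoter peak in both libraries, 15 were higher in WT proB and 10 at least 2-fold higher, against 6.60% of all such promoters, and none was 2-fold lower. The summed promoter pileup of the list went from 1813 in WT pre-proB to 4891 in WT proB, with 4238 in WT preB. Erg KO pre-proB had 1700 and Erg Rescue pre-proB 1911, and Erg Rescue proB had 3140. Kinases and adaptors varied more among themselves. Lyn went from 162 to 476 and Blk from 105 to 252, whereas Syk, the kinase recruited by the receptor, went from 212 to 124 (-0.84) with 9 peaks lost and 4 gained. The adaptor gene Blnk had nearly equal promoter pileups of 247 and 233 but 8 gained peaks and no lost one, of which the strongest, in an intron 23639 bp into the gene, had 173 in WT proB and 122 in WT preB. Plcg2 had 178 and 332, Cd22 156 and 207, Cd72 128 and 204 and Btk 70 and 78.

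The recombinase promoters were higher in WT proB and that of Dntt was lower. Rag1 and Rag2, which encode the 2 subunits that cut receptor gene segments, had promoter pileups of 165 and 282, and of 48 and 169 (log2 ratio 1.72). Rag1 had 3 gained peaks, of which the strongest had 61. Dntt, which encodes the polymerase that adds bases at heavy chain junctions, went from 128 in WT pre-proB to 17 in WT proB (-2.91), with no promoter peak in WT preB. Erg KO pre-proB had 49 there and Erg Rescue pre-proB 52. Away from its promoter Dntt had gained peaks of up to 44 and lost peaks of up to 21. The end-joining genes were far more even, at 857 and 981 for Xrcc4, 177 and 242 for Xrcc5, 360 and 579 for Xrcc6, 640 and 531 for Lig4, 832 and 625 for Prkdc and 1129 and 1031 for Dclre1c. Nhej1 had no promoter peak in either library. Over the list 7 of 29 peaks were lost (24.1%) and 12 of 34 gained (35.3%).

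Genes of the sort gate had 27 of 94 peaks lost (28.7%) and 45 of 113 gained (39.8%), but give no finding on the gate itself. Cd24a, by which the 2 populations were separated, had promoter pileups of 121 and 280. Ptprc, which encodes CD45 and thus B220, had 285 and 247 with 27 gained and 8 lost peaks, and Spn, which encodes CD43, had 169 and 120. Ptprc thus supplied 27 of the list's 45 gained peaks, and its strongest gained peaks lay 605442 and 386313 bp from its TSS. Cells positive for NK1.1 and CD11c were sorted out, yet the WT pre-proB library had a promoter peak of 203 at Klrb1c, which encodes NK1.1, and of 146 at Itgax, which encodes CD11c. In WT proB the strongest promoter peak at Klrb1c was 29, a gained peak that overlapped no WT pre-proB peak, and Itgax had none. Erg KO pre-proB had 191 at Klrb1c and 165 at Itgax. Ighm and Ighd have no protein-coding entry in the annotation used and are covered by the heavy chain locus below.

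Markers of pDCs, which share some regulators with early B progenitors, held a lost share of 51.7%, which depended in part on 1 gene. The marker Siglech had a promoter pileup of 522 in WT pre-proB against 100 in WT proB and 169 in WT preB, with 11 lost and 0 gained peaks. Pacsin1 had 295 and 31, the RNA sensor gene Tlr7 161 and 30, and the homing receptor gene Ccr9 151 and 43, while Cox6a2 had 33 and no peak. In contrast Tcf4, the master factor of pDCs that B cells also use, had 309 and 432 with 24 lost and 23 gained peaks, and Tlr9 had 401 and 507. Zeb2, a repressor, had 164 and 190 with 31 lost and 25 gained peaks. Runx2 supplied 66 of the list's 152 lost peaks, so the remaining 11 genes had 86 of 209 peaks lost (41.1%). The NK list stood at 47.3% with all its members kept. No share was computed without Id2, which supplied the most lost peaks of that list, so 47.3% and 41.1% cannot be compared directly. With all members kept and both peak lists at the length of the shorter, the NK list was above the pDC list (47.1% and 45.7%). Promoter peaks were present at 12 of 12 pDC markers in WT pre-proB and 11 of 12 in WT proB, with summed pileups of 2716 and 1869. Whether pDCs in the pre-proB gate took part in these differences was not tested.

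NK and innate lymphoid markers lost sites while most of their promoters stayed open. Id2, an inhibitor of E proteins, supplied 31 of the list's 78 lost peaks and had 12 gained peaks. Its strongest lost peak, 447390 bp upstream, had 199 in WT pre-proB, but its promoter was at 491 and 561. Rora had 7 lost and 4 gained peaks, the transcription factor gene Nfil3 7 and 1, and the innate lymphoid factor gene Zbtb16 6 and 0. Promoter peaks of Zbtb16 (20) and Il2rb (26) were called in WT pre-proB only. In the other direction Tbx21, which encodes the factor T-bet, had a promoter peak of 27 in WT proB only, and pileups went from 76 to 159 at the perforin gene Prf1, from 20 to 43 at Eomes and from 50 to 78 at Il18r1. Promoter peaks were present at 10 of 13 NK markers in WT pre-proB and 9 in WT proB, with summed pileups of 1275 and 1240, and the activating receptor gene Ncr1 and the granzyme gene Gzmb had none in either library. The part of NK or innate lymphoid cells in this result was not tested.

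Markers of T cells went in both directions. Peaks lost were 60 of 164 (36.6%) and gained 74 of 173 (42.8%). Cd8a had 8 lost and 0 gained peaks with a promoter pileup of 98 in WT pre-proB and no promoter peak in WT proB, and Cd3g had 53 and none, both named after their values were seen. Hes1, a target of Notch, had 12 lost and 17 gained peaks, Gata3 9 and 7, and Cd5 6 and 9. Tcf7, a T-lineage factor, had 9 gained peaks and 1 lost, with a promoter peak of 55 that was absent in WT pre-proB. Promoter peaks were present at 10 of 17 T-cell markers in each library, with summed pileups of 1094 and 1514, and Cd3d, Cd3e, Zap70 and Themis had none in either.

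Among myeloid markers, 40 of 97 peaks were lost (41.2%) and 25 of 85 gained (29.4%). Cebpd, a C/EBP factor gene, had a promoter pileup of 315 and 89 with 8 lost and 0 gained peaks, and the integrin gene Itgam had 143 and 21 with a lost peak of 368, named after its values were seen. Cebpb had 119 and 70 and Csf1r 37 and 69, while Gfi1, a repressor that favours lymphoid fate, had 88 and 307. The granule and inflammatory genes Mpo, Elane, Prtn3, Ctsg, S100a8 and S100a9 had no promoter peak in either library, and summed promoter pileups of the list were 1093 and 786. The part of myeloid cells in these values was not tested.

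Stem and progenitor factors lost 71 of 189 peaks (37.6%) and gained 39 of 156 (25%). Mecom, a stem cell factor gene, had 19 lost and 1 gained peak, with its strongest lost peak at 141, but promoter pileups of 132 and 177. Mn1 had 15 lost and 6 gained peaks and a promoter at 97 and 29, Meis1 13 and 6, and Lmo2 6 and 8. Progenitor cytokine receptors had 59 of 153 peaks lost (38.6%) and 62 of 152 gained (40.8%), with 13 lost and 25 gained at Tgfbr2, 8 and 9 at Il6st and 8 and 4 at Flt3. The promoter of Flt3, a receptor of early progenitors, stood at 635 and 495. Csf3r had 4 lost and 10 gained peaks, although its promoter peak of 23 was called in WT pre-proB only.

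Genes of the IL-7 receptor pathway, the main growth signal of proB cells, had low shares in both directions, with 30 of 146 peaks lost (20.5%) and 29 of 138 gained (21%). Il7r had 2 lost and 7 gained peaks, of which one 19394 bp from the TSS had 150 in WT proB and 87 in WT preB, whereas Bcl2, a survival gene, had 11 lost and 5 gained. Stat5b had 2 and 4. Homing receptors had 66 of 226 lost (29.2%) and 69 of 226 gained (30.5%). Within that list Cxcr4, which retains cells in the marrow, had 14 lost and 18 gained peaks, Itga4 9 and 11, S1pr1 6 and 10 and Cd44 9 and 7. S1pr1, an exit receptor gene, had a promoter pileup of 87 and 468, and Cxcr5, a follicle homing receptor gene, 25 and 233, against 100 and 25 for Itgb7.

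Cell cycle and survival genes had 88 of 296 peaks lost (29.7%) and 79 of 279 gained (28.3%), with 16 lost and 13 gained at Myc, 13 and 14 at Bcl2l11 and 8 and 8 at Bcl6. The Myc promoter stood at 123 and 249 and that of Bcl2l11, which encodes the death factor BIM, at 294 and 591. Erythroid and megakaryocyte markers had 15 of 38 lost (39.5%) and 9 of 33 gained (27.3%), with 4 and 1 at Tfrc and 0 and 3 at Gfi1b. Housekeeping genes, the control list, had 10 of 58 lost (17.2%) and 25 of 76 gained (32.9%), with 12 gained at Ywhaz and 7 at Hprt. All 10 housekeeping promoters were open in both libraries and none differed 2-fold, with log2 ratios between -0.56 and 0.19.

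Some genes were the nearest to far more sites in one direction. Of 17049 autosomal genes outside receptor loci with a peak, 9722 had at least 1 lost peak, 9747 at least 1 gained peak, 6223 both and 3803 neither. A net change of 10 or more peaks was found toward gain at 119 genes and toward loss at 228. The 8 genes with the largest net gain were Sdk2 (4 lost, 29 gained), Prim2 (5 and 27), Arid1b (17 and 38), Sipa1l2 (4 and 24), Katnal1 (3 and 23), Ebf1 (8 and 27), Cdh26 (4 and 23) and Rpl38 (1 and 20). Ebf1 is the only B-lineage factor among them. Many of the gained peaks lay outside the gene they were assigned to. Inside the gene body were 6 of 29 at Sdk2, 2 of 24 at Sipa1l2, 6 of 23 at Katnal1, 0 of 23 at Cdh26 and 1 of 20 at Rpl38. Prim2 had 18 of 27 inside, Arid1b 17 of 38 and Ebf1 18 of 27. The shared peaks at Sdk2, a neural adhesion gene, were also higher in WT proB, with a median pileup of 32 in WT pre-proB and 89 in WT proB, and for Ebf1 these medians were 39 and 85. Of the gained peaks, 16 at Sdk2, 19 at Prim2 and 26 at Arid1b were also called in WT preB.

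The 8 genes with the largest net loss were Runx2 (66 lost, 11 gained), Bcl11a (42 and 12), Slco3a1 (34 and 6), Rnd3 (35 and 7), Hpcal1 (26 and 0), Rapgef5 (42 and 16), Camk1g (32 and 7) and Ahr (25 and 0). Runx2, a Runt-domain factor, lost 61 of its 66 peaks within the gene body, at a median pileup of 18.5, and 44 of the 66 were under 24, so most lay near the limit of calling. None of these was called in WT preB, against 62 in Erg KO pre-proB and 46 in Erg Rescue pre-proB. Bcl11a, a repressor needed for early B cells, had 27 of 42 lost peaks in the gene body, and promoter pileups of 530 and 424. In the body lay 20 of 34 lost peaks at Slco3a1, 13 of 26 at Hpcal1 and 12 of 42 at Rapgef5. Few did so at Rnd3 (5 of 35), Camk1g (1 of 32) and Ahr (1 of 25). Lost peaks were stronger at Slco3a1 (up to 553), Camk1g (467), Hpcal1 (377), Rapgef5 (334) and Ahr (326), the last of which encodes the aryl hydrocarbon receptor.

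In windows of 500000 bp, 1872 of 4335 windows with a peak had more gained than lost peaks and 2045 more lost than gained. The largest net gain, 36, lay at chr11:114000001-114500000 around Sdk2, with 4 of 22 peaks lost and 40 of 58 gained, followed by 33 in a window with Cux1 and Myl10. A window with a cluster of zinc finger genes on chromosome 4 had 44 gained and 12 lost peaks, and since these genes are near-identical copies, placement of reads there is uncertain. A window with Erg and Ets2 had 32 gained and 5 lost peaks. The largest net loss, -59, lay in the window of Runx2 and Supt3, followed by -30 with Bcl11a, -29 with Mybl2 and Tox2 and -28 with Morc1 and Trat1.

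Antigen receptor loci differed in kind. At the kappa light chain locus 158 of 213 WT proB peaks were gained (74.2%, 95% interval 67.9 to 79.6) and 15 of 67 WT pre-proB peaks lost (22.4%). Of the 158 gained kappa peaks 141 were called in WT preB, 136 in Erg Rescue proB and only 7 in Erg KO pre-proB. Within the kappa locus 2 windows had 32 and 24 gained peaks where WT pre-proB had none. The heavy chain locus, which is rearranged at this stage, had 80 of 208 gained (38.5%) and 36 of 160 lost (22.5%), and 37 of the 80 were called in WT preB. Variable segments are similar in sequence, so single peaks are uncertain at both loci. Among T-cell receptor loci, the alpha and delta locus had 34 of 61 peaks lost (55.7%, 43.3 to 67.5), above the 34.1% over all peaks. The beta locus had 23 of 50 lost (46.0%, 33.0 to 59.6). At the gamma locus 8 of 20 were lost (40%, 21.9 to 61.3, up to a pileup of 397). The beta and gamma intervals include the 34.1%. Gained at these loci, in the same order, were 13 of 39, 11 of 40 and 1 of 13, with intervals that include the 31.9% over all peaks. The small lambda locus had 7 of 14 lost and 5 of 12 gained.

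The letters around the summits differed between lost and gained peaks. Within 100 bp of the summit, the EBF1 pattern occurred in 4.60% of gained peaks, 1.32% of shared WT proB peaks, 0.925% of shared WT pre-proB peaks and 0.126% of lost peaks, against 2.37% and 0.652% of all WT proB and all WT pre-proB peaks. In lost peaks this share was 0.631% when an overlap of 50% of both peaks was asked for, 0.411% within 200 bp of the summit and 0.0847% among peaks with a pileup of 24 or more. Read backwards, as a control of the same base composition, the pattern occurred in 0.695% of gained and 0.417% of lost peaks. The octamer ATTTGCAT of POU factors such as OCT2 occurred in 4.10% of gained and 0.647% of lost peaks, and backwards in 0.103% and 0.123%. Gained peaks with the octamer were more often those kept in WT preB, at 5.6% against 2.68% of those not called there, and the EBF1 pattern had 5.03% and 4.20%.

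Lost peaks more often held the RUNX pattern TGTGGTT, in 14.9% against 8.42% of gained peaks and 11.5% of all WT pre-proB peaks, with 3.33% and 2.56% when read backwards. The E box CAGCTG, a sequence read the same on both strands, occurred in 23.8% of lost and 17.6% of gained peaks, against 21.3% of all WT pre-proB and 19% of all WT proB peaks. It was commoner in strong lost peaks, at 45.2% of the top 1000 by score, where the EBF1 pattern occurred once. The top 1000 gained peaks held CAGCTG in 24.7%, the EBF1 pattern in 10.8% and the octamer in 8.4%. The IRF pattern GAAANNGAA occurred in 12.6% of lost and 6.76% of gained peaks, and its backward control, at 9.88% and 6.51%, also differed, though by less. The ETS pattern CCGGAAGT and the CTCF pattern CAGGGGGC were scarcer in lost peaks (0.132% and 0.821%) and in gained peaks (0.592% and 1.91%) than in shared WT pre-proB peaks (1.64% and 3.28%). These shares cover promoter and distal peaks together. Promoters made up 27.9% of the shared but 6.50% of the lost and 10.8% of the gained peaks, and the part of this in the difference was not tested. The PU.1 pattern GAGGAAGT occurred in 8.66% of lost and 5.34% of gained peaks, with 1.35% and 1.49% backwards, and the ETS and IRF composite GGAANNGAA in 12.7% and 7.04%, with 5.94% and 5.16% backwards. For CACCTG the shares were 21.3% and 18.3%, with 5.81% and 7.03% backwards. Patterns whose backward control differed about as much, or whose lost and gained shares were close, were GCGTGAC of the PAX5 core (0.349% and 1.01%), CCTTTGA of TCF and LEF (3.28% and 4.75%), TGTTTAC of FOXO (2.55% and 2.70%), AGATAA of GATA factors (8.96% and 8.28%), TGANTCA of AP-1 (7.12% and 6.70%), TTCNNNGAA of STAT (6.0% and 6.32%), TAAAAATAG of MEF2 (0.533% and 0.695%), AGGTGTGA of T-box factors (1.13% and 0.917%) and TTGCGCAA of C/EBP (0.0613% and 0.0479%).

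**Figure D5:**
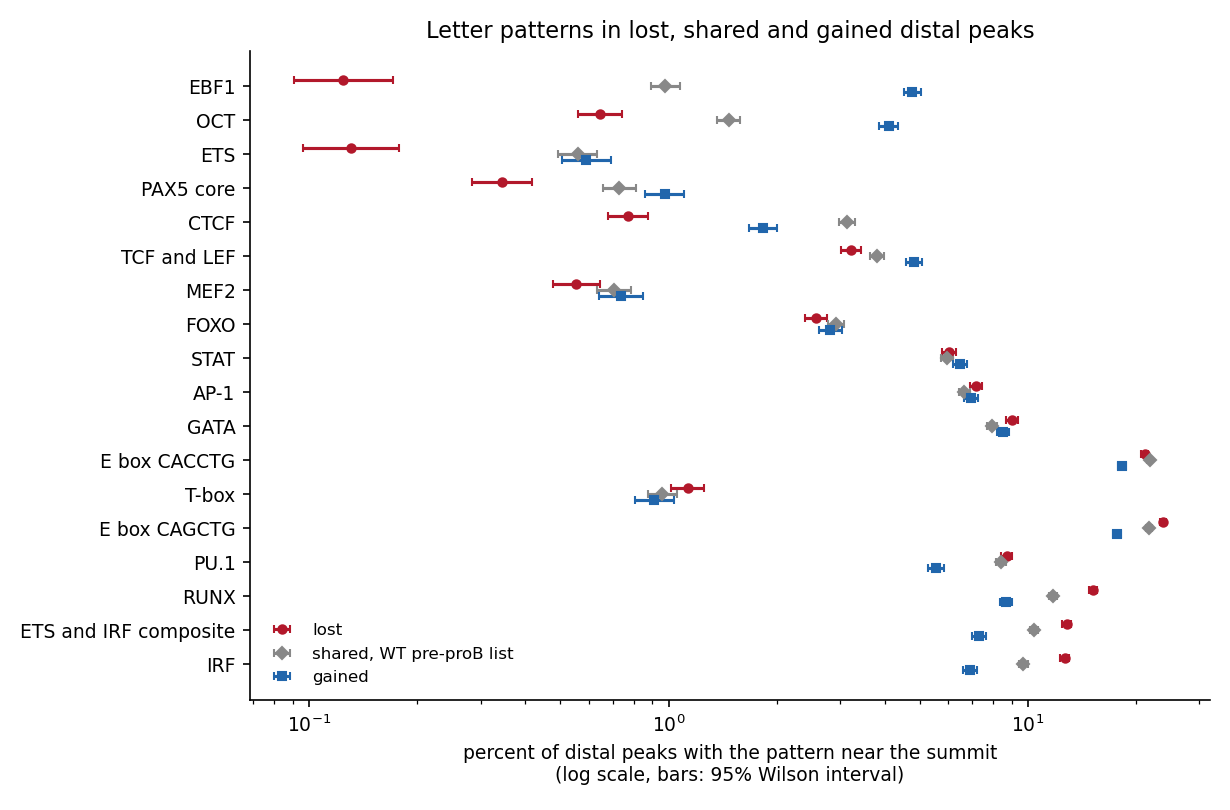
Share of distal lost, shared (WT pre-proB list) and gained peaks, in percent on a log scale with 95% Wilson intervals, that held each of 18 of the letter patterns (C/EBP, the rarest, is left out) within 100 bp of the summit. EBF1 and octamer (OCT) patterns are separated most widely, with gained peaks on the right, and RUNX, IRF and CAGCTG stand to the right in lost peaks.

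The 1345 gained peaks with the EBF1 pattern lay nearest to 1185 genes, of which 140 had more than 1 such peak. Sipa1l2 and Maf had 4 each. The pattern lay at a median of 31.5 bp from the summit in gained peaks and 53.5 bp in lost peaks. Of the 1345 peaks 103 were promoter peaks, 713 were called in WT preB, and 698 in Erg Rescue proB. Erg KO pre-proB held 35 of them and Erg Rescue pre-proB 45. In the list of B-lineage factors 13 of 219 gained peaks held the pattern (5.94%, 95% interval 3.5 to 9.9), which includes the 4.60% of all gained peaks. Among them were the Pax5 peak shown above with a pileup of 20 and the Ebf1 peak with 64. In the pre-BCR list 1 of 52 gained peaks held the pattern (1.92%, 0.34 to 10.1), an interval that also includes 4.60%. Repeats and base composition also differed, since 9.84% of lost and 11.8% of gained summits lay in soft-masked sequence against 5.10% of shared WT pre-proB summits, and the median GC content was 46.8% around lost, 49.3% around gained and 51.2% around shared summits. Their part in the pattern shares was not tested.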

How the data were processed

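ATAC-seq libraries were made from sorted bone marrow cells. Per the labels nuclei were cut with Tn5 from a Nextera kit, whereas the methods of the study name sonication. The submitters' processing notes name CASAVA 1.8.2, Bowtie2, Picard, MACS2 and mm10. Not given in the sources used here were versions of the last tools, options of peak calling and duplicate handling. The authors deposited 1 narrowPeak list per library, without pooling, and its values bear on what counts as lost, since a site just under the threshold of 1 library is absent from its list.

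Peaks were ranked within a list by the score, which in the deposited files equals 10 times the −log10 q without its decimals. The fold is a ratio that the authors' caller formed between the summit pileup and the background, and the deposited −log10 p-value and −log10 q-value are also those of the summit. Every deposited fold was a multiple of 1 step per library, from which the background pileup and whole summit pileups were derived. Read totals were not used, so the background pileup stands for depth, and the lowest called pileup of 12 limits what could be seen.

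Coordinates are GRCm38, written from 1. Peaks were overlapped with bedtools 2.31.1 (at least 1 bp) and assigned to the nearest protein-coding TSS of GENCODE M21 basic. Promoter levels are the strongest peak within 1000 bp of a TSS. Exon, intron and intergenic refer to transcripts of any type. Letter patterns were searched on both strands within 100 bp of the summit, and several overlap (the ETS, PU.1, IRF and composite patterns share letters). Scripts used python 3.11.15, pandas 2.3.3, numpy 2.4.6, scipy 1.17.1, pysam 0.24.0 and matplotlib 3.10.9, and the overlap, interval and pattern steps were tested on simulated data.

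Groups came from the sample titles. With 1 library a group there was no test, and Wilson intervals are at the 95% level. The peak sets, gene lists and patterns were chosen with earlier results of these data known. Genes were named by rule: all members of the B-lineage factor, pre-BCR, recombination and sort marker lists, the members of other lists with the most lost and gained peaks, the 8 genes of the largest net gain and loss, and the 8 peaks and 8 promoters of the highest score in each direction; other genes are marked as chosen after their values were seen, or illustrate a list's promoter range. Alternatives were a stricter overlap, equal and shorter lists, all-gene TSS, wider promoter and pattern windows, and a pileup floor added after seeing the data. A few genes that the rule names, and 1 sequence, are not reported here.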

Additional observations from a re-analysis of the deposited data

How the results depend on the processing

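Distal peaks were exchanged more than promoter peaks, and the EBF1 pattern was commoner in gained than in lost peaks, under every alternative run for them. With an overlap of at least 50% of both peaks, 47.1% of peaks were lost and 44.8% gained, the distal minus promoter differences were 30.1 and 24 percentage points (29.4 and 21.2 in the report), and the EBF1 pattern was in 4.10% of gained and 0.631% of lost peaks. With both lists at the length of the shorter, 33.1% were lost and 33.4% gained, so the order of the 2 shares turned. With both at 45834 peaks, 35.8% were lost and 35.6% gained, the differences were 38.4 and 30.9 points and the gained EBF1 share was 5.33%. A promoter window of 2500 bp gave 23.4 and 16.1 points. Within 200 bp of the summit the EBF1 shares were 5.69% and 0.411%. Among peaks with a pileup of at least 24, an alternative chosen after seeing the data, 28.5% were lost and 22.6% gained, and the EBF1 shares were 6.15% and 0.0847%. The cause of these shifts was not tested. Genes with a closed or an opened promoter numbered 375 to 505 and 900 to 1059.

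Of the 30 list shares, 22, 28, 22 and 23 stayed on the same side of the share over all peaks under the stricter overlap, the equal length, the shorter lists and the TSS of all genes. The lost shares of the NK and pDC lists and the gained share of the B-lineage factors did so in all 4, but the pDC list stood below the NK list at the equal length (45.7% and 47.1%), in the shorter lists (45.8% and 47.7%) and with the TSS of all genes (37.6% and 37.9%). The lost share of the B-lineage factors was 53.1% against 47.1% under the stricter overlap. Sites just below the lowest called pileup could not be seen. No paired analysis was possible because each group had 1 library.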
